A study of Saccharomyces cerevisiae with 10 samples.

Results

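The genes described here are the inositol and phosphatidylcholine regulon of Saccharomyces cerevisiae, 9 of the 5449 yeast genes named on the array. They were chosen by gene symbol as the regulators Ino2, Ino4 and Opi1 with phospholipid genes tied to their control, and each matched exactly 1 probe set. The members are INO1 (YJL153C), INO2 (YDR123C), INO4 (YOL108C), OPI1 (YHL020C), ITR1 (YDR497C), CHO1 (YER026C), CHO2 (YGR157W), OPI3 (YJR073C) and CKI1 (YLR133W). All 9 lay above the background level of the array on all 10 arrays.

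The study measured yeast that carried prs426GPD-αENaC-HA, a plasmid for the HA-tagged α subunit of the epithelial sodium channel, a membrane protein of animal epithelia. Control yeast carried the vector pRSGPD426. GPD names the strong constitutive promoter of these plasmids, which does not need an inducer. There were 3 αENaC and 7 control arrays, all from cultures grown at 26 °C in selective medium to mid log phase. The strain, and whether the medium held inositol or choline, are not given in the sources used here. By the running numbers in the sample titles, αENaC 1 and 2 with controls 1 and 2 form set 1 (numbers 1 to 4), αENaC 3 with control 3 forms set 2 (numbers 5 and 6), and controls 4 to 7 form set 3 (numbers 11 to 14).

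Yeast makes inositol from glucose 6-phosphate and uses it for phosphatidylinositol, while phosphatidylserine is decarboxylated and methylated to give phosphatidylcholine. The paired activators Ino2 and Ino4 bind a shared promoter element, called UASINO, in many genes of these routes. The repressor Opi1 is held at the endoplasmic reticulum (ER) by phosphatidic acid and Scs2, and moves to the nucleus to shut these genes down when inositol is plentiful and phosphatidic acid is used up. Yeast cells without the unfolded protein response proteins Ire1 or Hac1 need added inositol to grow.

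The arrays differed more by set than by plasmid. Over yeast probe sets, 53.7% of the variance lay on the first principal component, which put the sets in the order 1, 2 and 3, with set 3 made of controls alone. Arrays of the same set and group correlated at a median r of 0.998 across 10715 probe sets, against 0.985 for arrays of the same group from different sets and 0.992 for arrays of different groups within a set. These probe sets are not independent replicates. The labels name no separate cultures for the single arrays, and p-values cover only the spread among the arrays, some of which may be technical. The αENaC transcript is not measured here. The plasmid marker gene URA3 was at −0.02 ± 0.24 (log2 difference, SE, n = 3 and 7, limma adjusted p = 0.976). Within sets it was lower in αENaC, by −0.45 ± 0.09 in set 1 and −0.59 ± 0.13 in set 2.

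One member of the 9 passed the test in the comparison of αENaC with control yeast. INO1, which encodes the enzyme for the first committed step of inositol synthesis, rose. The other 8 members did not pass. Over all 5498 yeast probe sets, 1.73% were called by limma at an adjusted p under 0.05. The 9 differences had a median of 0.07, against 0.02 over all yeast probe sets, with 6 above and 3 below 0. Levels are on a log2 scale of the array's mean signal after 0.03 was added, and a level of one probe set cannot be set against that of another.

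The level of INO1 was 1.50, 1.42 and 1.07 on αENaC arrays 1 to 3. On control arrays 1 to 7 it ran from −1.45 in control 3 to −0.04 in control 4, with a median of −0.33. The lowest αENaC array lay 1.10 above the highest control, so the groups did not overlap, as in 4.97% of the yeast probe sets in this direction. Before quantile normalization, the INO1 signal was 2.97, 2.85 and 1.999 array means in αENaC yeast and 0.289 to 0.926 array means in the controls. The group means were 1.33 ± 0.23 (SD, n = 3) and −0.43 ± 0.47 (SD, n = 7), a difference of 1.76 ± 0.26 (SE) with a 95% confidence interval of 1.18 to 2.34. This is a 3.39-fold rise (2.27 to 5.07), with an adjusted p of 0.0121 in limma. It was the second largest positive difference of the 5498 probe sets.

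The rise of INO1 was present in both sets that hold αENaC arrays. It was 1.80 ± 0.12 within set 1 (2 against 2 arrays, adjusted p = 0.000337) and 2.52 ± 0.17 within set 2 (1 against 1, adjusted p = 0.000941). The test of the difference between these effects gave −0.72 ± 0.21 (adjusted p = 0.0549). The larger value of set 2 stands on control 3, whose INO1 level was 1.11 ± 0.15 below that of the set 1 controls. The αENaC array of set 2 was itself the lowest of its group, which makes that value smaller. Without control 3 the difference over the other arrays was 1.59 (adjusted p = 0.000473). The INO1 call was lost without αENaC 1 (1.68, adjusted p = 0.109), without αENaC 2 (1.71, adjusted p = 0.105) and after averaging of near-identical arrays (1.79, adjusted p = 0.783). With the replicate number as a block the difference was 2.04 (adjusted p = 0.111), in a fit of 3 against 3 arrays. Over all 25 alternatives the adjusted p of INO1 ran from 4.37e-07 to 0.783.

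**Figure D1:**
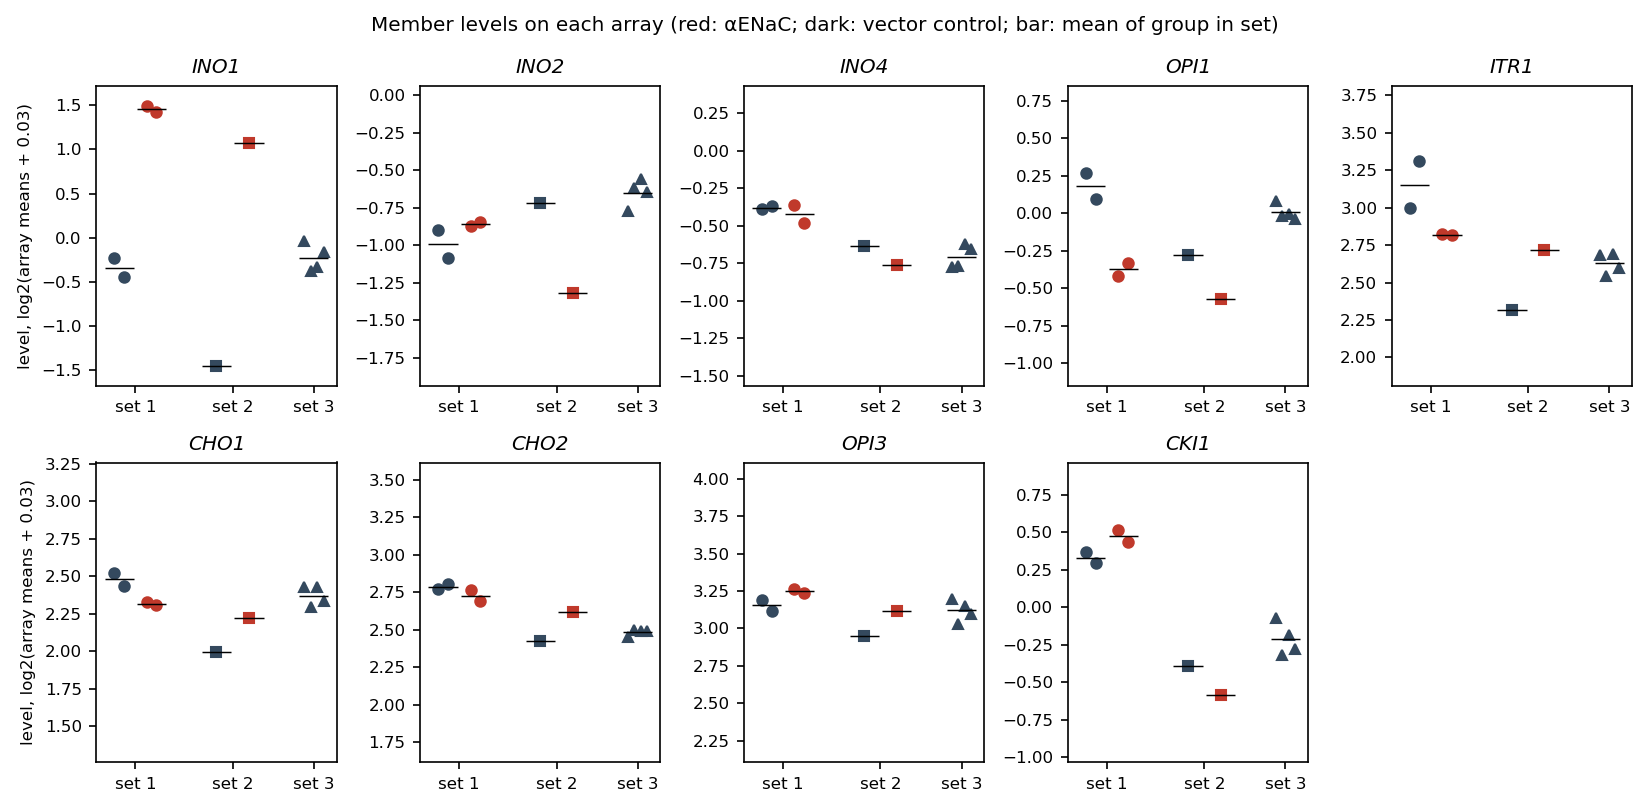
Level of each member on each array, as log2(array means + 0.03) after quantile normalization, grouped by title number set. Points are arrays and short bars are means of a group within a set, and the scale of the y axis differs between panels. INO1 in αENaC yeast lies at 1.07 to 1.50, above all 7 controls, and OPI1 in αENaC yeast lies at −0.57 to −0.33, below all 7 controls on this quantile-normalized scale.

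Of the regulators, OPI1 differed most in size. The level of this repressor gene was −0.41, −0.33 and −0.57 on αENaC arrays 1 to 3, and ran from −0.28 in control 3 to 0.27 in control 1, with a median of −0.0025. All αENaC arrays lay below all controls, but control 3 was only 0.05 above the highest αENaC array. Before quantile normalization the groups overlapped, with OPI1 signals of 0.873, 0.904 and 0.620 array means in αENaC yeast and 0.701 to 1.32 array means in the controls. The difference was −0.45 ± 0.11 (SE, n = 3 and 7), or 1.37-fold lower signal in αENaC, with a confidence interval of −0.69 to −0.21, and it missed the threshold (limma adjusted p = 0.0665). Groups that do not overlap in this direction were found for 3.62% of the yeast probe sets.

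OPI1 was lower in αENaC within both sets. The difference was −0.55 ± 0.07 in set 1 (adjusted p = 0.00262) and −0.29 ± 0.10 in set 2 (adjusted p = 0.114), and the test of their difference gave −0.26 ± 0.13 (adjusted p = 0.185). With the set as a fixed block OPI1 was called lower at −0.47 (adjusted p = 0.00853), in a fit that called 14.2% of all yeast probe sets. It was also called without control 3, at −0.50 (adjusted p = 0.0174). It was not called with the replicate block (−0.47, adjusted p = 0.172) or after averaging of near-identical arrays (−0.46, adjusted p = 0.998). Without quantile normalization the difference was −0.24 (adjusted p = 0.462). Under 25 alternatives the adjusted p ran from 1.765e-05 to 0.998, with 6 calls. The sign was negative in all of these alternatives.

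The activator genes INO2 and INO4 gave no call in the comparison over all arrays. INO2, whose product carries the activating domain of the pair, was at −0.87, −0.85 and −1.32 on αENaC arrays 1 to 3, against −1.09 in control 2 to −0.56 in control 6, with a median of −0.71. The groups overlapped, since αENaC 1 and 2 lay among the controls while αENaC 3 was the lowest of all arrays. The difference was −0.25 ± 0.14 (adjusted p = 0.348). It was 0.14 ± 0.08 in set 1 and −0.60 ± 0.12 in set 2, where it rests on 1 array against 1. The test of the difference between these effects gave 0.74 ± 0.15 (adjusted p = 0.0195), and 17.4% of all yeast probe sets were called in that test. Without αENaC 3 the overall INO2 difference was −0.10 (adjusted p = 0.663).

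INO4, the DNA-binding partner of INO2, was at −0.36, −0.48 and −0.76 on the αENaC arrays and −0.77 to −0.37 in the controls (median −0.63). The ranges of both groups were almost the same. The difference was 0.07 ± 0.12 (adjusted p = 0.800), with a confidence interval of −0.19 to 0.33. It was −0.04 ± 0.07 in set 1 and −0.12 ± 0.10 in set 2. On the controls alone INO4 was 0.33 ± 0.06 lower in set 3 than in set 1, so the levels followed the sets.

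ITR1, the main inositol transporter gene of the plasma membrane, was at 2.82, 2.82 and 2.72 on the αENaC arrays. In the controls it ran from 2.31 in control 3 to 3.31 in control 2, with a median of 2.68. The αENaC arrays sat inside the control range and close together. The difference over all arrays was 0.05 ± 0.18 (adjusted p = 0.908; confidence interval −0.34 to 0.45). ITR1 was lower in αENaC in set 1, by −0.33 ± 0.10 (adjusted p = 0.0393), and stood at 0.41 ± 0.14 in set 2 (adjusted p = 0.114). These effects differed by −0.74 ± 0.18 (adjusted p = 0.0313). Its overall sign turned under other scalings, to −0.21 with median centring and −0.05 without quantile normalization.

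The phosphatidylserine synthase gene CHO1 was at 2.33, 2.31 and 2.22 on the αENaC arrays and at 1.99 in control 3 to 2.52 in control 1 (median 2.43). All αENaC arrays were within the control range. The difference was −0.06 ± 0.11 (adjusted p = 0.785), with a confidence interval of −0.30 to 0.17. It was −0.17 ± 0.06 in set 1 and 0.23 ± 0.09 in set 2, and these effects differed by −0.39 ± 0.11 (adjusted p = 0.0495).

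Both methyltransferase genes that turn phosphatidylethanolamine into phosphatidylcholine were close to their control levels. CHO2, for the first methylation, was at 2.76, 2.69 and 2.62 on the αENaC arrays against 2.43 in control 3 to 2.80 in control 2 (median 2.49). The αENaC arrays lay below both set 1 controls and above all controls of sets 2 and 3. Its difference was 0.13 ± 0.10 (adjusted p = 0.524; confidence interval −0.09 to 0.35). OPI3, for the last methylations, was at 3.26, 3.24 and 3.12 against 2.95 in control 3 to 3.20 in control 4 (median 3.12). Its difference was 0.10 ± 0.07 (adjusted p = 0.503; confidence interval −0.07 to 0.26). With median centring CHO2 was at −0.13 and OPI3 at −0.29, so the sign of both depends on the scaling.

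CKI1, the choline kinase gene at the start of the CDP-choline route, was at 0.52 and 0.43 on αENaC 1 and 2 and at −0.58 on αENaC 3. The set 1 controls stood at 0.37 and 0.30, control 3 at −0.39 and the set 3 controls at −0.31 to −0.07. αENaC 1 and 2 and the set 1 controls were thus higher than all other arrays. The difference was 0.20 ± 0.25 (adjusted p = 0.701), with 0.14 ± 0.09 in set 1 and −0.20 ± 0.12 in set 2. It depended on single αENaC arrays, at 0.56 without αENaC 3, 0.0056 without αENaC 1 and 0.047 without αENaC 2, and was called in none of these. Its interval of −0.35 to 0.75 was among the widest of the 9, so CKI1 is less closely bounded than OPI3.

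**Figure D2:**
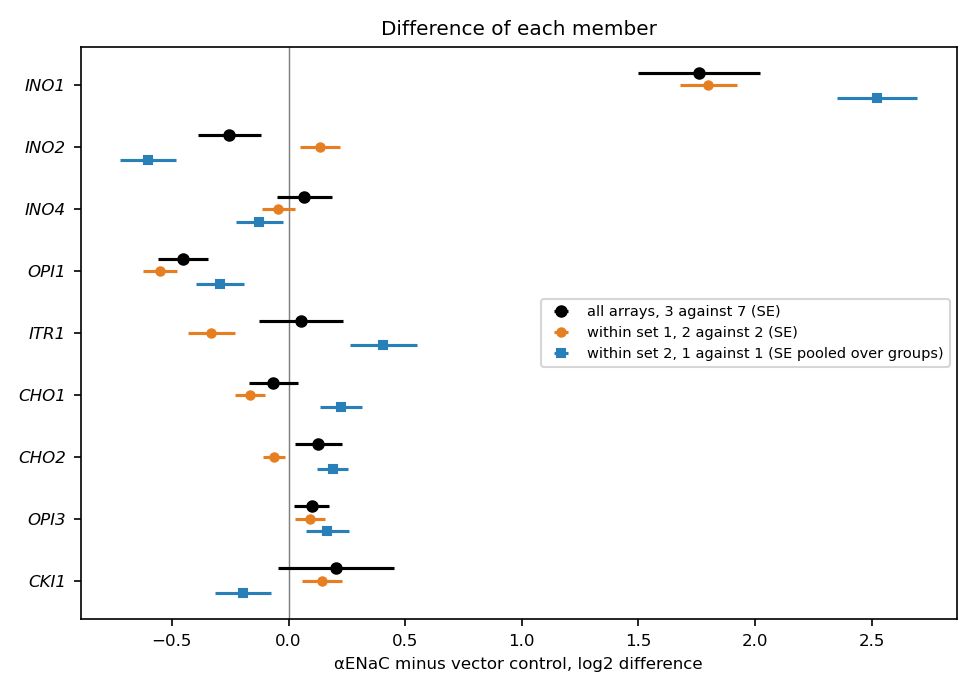
Log2 difference of αENaC from vector control for each member over all arrays (3 against 7), within set 1 (2 against 2) and within set 2 (1 against 1, with a spread pooled over all 5 set and group means), each with its SE. INO1 lies at 1.76, 1.80 and 2.52 and OPI1 at −0.45, −0.55 and −0.29, while ITR1 lies at 0.05, −0.33 and 0.41.

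In this fit by set, 3 members were called in set 1 (INO1 higher, OPI1 and ITR1 lower), where 35.3% of all yeast probe sets were called. In set 2, 2 members were called (INO1 higher, INO2 lower), against 10.5% of all. The effects differed between the sets for 3 members (INO2, ITR1 and CHO1), against 17.4% of all. Much of the spread in this fit comes from near-identical arrays, which makes its p-values small, and set 2 has a single array on each side.

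Control yeast alone showed how far these genes move with the same vector. Between set 3 and set 1 controls 6 members were called, with INO2 higher in set 3 and INO4, OPI1, ITR1, CHO2 and CKI1 lower, against 64.3% of all yeast probe sets. Control 3 differed from the set 1 controls in 7 members, all lower, against 42.8% of all probe sets called and 23.2% called lower. These were INO1, INO4, OPI1, ITR1, CHO1, CHO2 and CKI1. Besides INO1, ITR1 was lower by −0.84 ± 0.12, CKI1 by −0.72 ± 0.10 and CHO1 by −0.49 ± 0.08.

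Control 3 was also the lowest of the 7 controls for 7 members, namely INO1, OPI1, ITR1, CHO1, CHO2, OPI3 and CKI1, and the highest for 0 of the 9. Over all yeast probe sets it was the lowest control for 17.6% and the highest for 20.4%. The count of 7 was 6 without quantile normalization (25.9% of all) and 5 with median centring (11.1% of all). This pattern rests on 1 array and was noticed after the values were seen. Every difference within set 2 is taken from αENaC 3 against control 3, the sole control of that set, and so depends on both arrays.

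**Figure D3:**
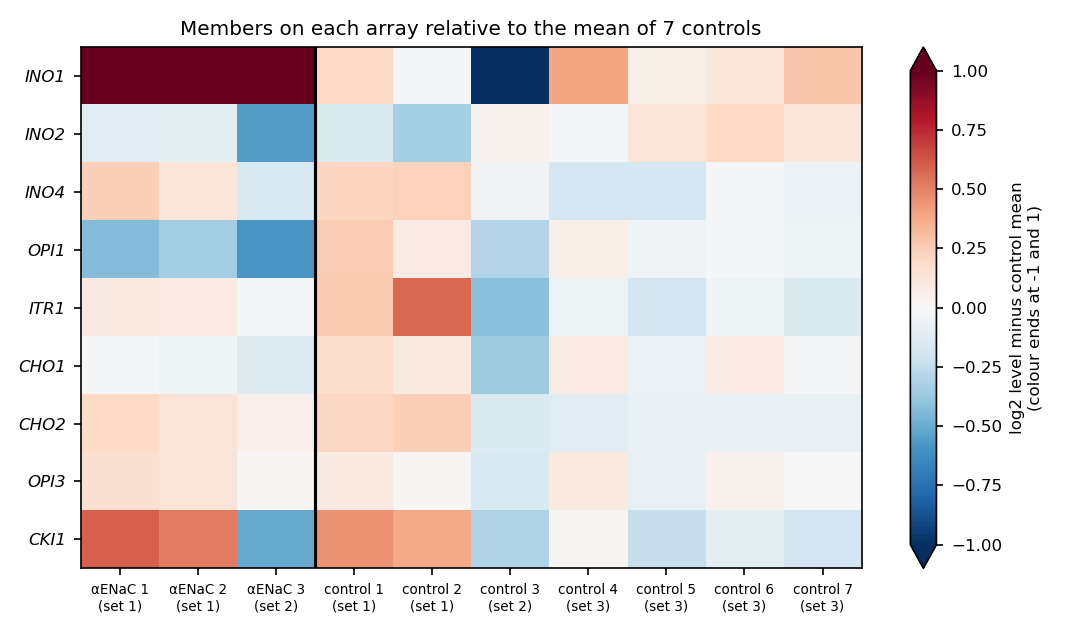
Level of each member on each array minus the mean of the 7 controls, in log2 units, with colours ending at −1 and 1. In the αENaC columns INO1 is the deepest (red) and OPI1 is blue on all 3, while CKI1 is red on αENaC 1 and 2 and blue on αENaC 3. Control 3 is the lowest control in 7 of the 9 rows, with the deepest blue in INO1.

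The wider phospholipid pathway was read from 10 lists of 77 further genes, of which 76 were measured. In these lists 1 gene fell and none rose, with 15 at an unadjusted p under 0.05, against 998 of the 5498 yeast probe sets. The median difference of the 76 was 0.03, with 40 above and 36 below 0. The gene that fell was PLB2, a phospholipase B gene, at −0.93 ± 0.20 (adjusted p = 0.0470). Its difference was −0.55 ± 0.13 in set 1 and −1.71 ± 0.19 in set 2. PLB2 passed in 10 of the 25 alternatives, and its adjusted p spanned 1.64e-05 to 0.988. Settings in which it did not pass included the replicate block (−0.94, adjusted p = 0.211), averaging of near-identical arrays (−1.03, adjusted p = 0.988), and leaving out any one of αENaC 1, 2 or 3 or controls 4 to 7 (adjusted p from 0.0544 to 0.220). Of the other genes of phospholipid turnover and reuptake, 6 were measured and none was called. The 7 measured genes of this list had a median of −0.10, with 2 positive and 5 negative. GIT1 had the largest fall of the 76, at −1.10 ± 0.33 (limma adjusted p = 0.123), with an αENaC mean at the background level of −2.00. GDE1 had the largest rise of the 76, at 0.66 ± 0.18 (limma adjusted p = 0.0925), with all αENaC arrays above all controls. Within sets the GDE1 difference was smaller, at 0.35 ± 0.12 in set 1 and 0.38 ± 0.18 in set 2. The set 3 controls, which have no αENaC arrays beside them, differed from the set 1 controls by −0.60 ± 0.11.

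Genes of inositol supply and inositol phosphates had a median of 0.15, with 5 of 8 positive and none called. The inositol monophosphatase genes, whose products free inositol from the phosphate that Ino1 makes, were INM2 at 0.29 ± 0.07 (adjusted p = 0.0810) and INM1 at 0.48 ± 0.19 (adjusted p = 0.204). All αENaC arrays lay above all controls for INM2 but not for INM1. This held for 5 of the 76 list genes, GDE1, LPP1 and FAB1 among them, against 4.97% of all yeast probe sets. INM1 was at 0.09 ± 0.09 within set 1 and 0.30 ± 0.13 within set 2.

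The genes next to CHO1 on the CDP-diacylglycerol route had a median of 0.09, with 3 of 4 positive and none called. CDS1, the CDP-diacylglycerol synthase gene, was at −0.11 ± 0.15 (adjusted p = 0.735), with −0.39 ± 0.09 in set 1 and 0.36 ± 0.13 in set 2. PSD2, a phosphatidylserine decarboxylase gene, was at 0.12 ± 0.09 (adjusted p = 0.518). Control 3 was the lowest control for all 4 of these genes (CDS1, TAM41, PSD1 and PSD2), against 17.6% of all yeast probe sets. Of 12 phosphatidic acid and diacylglycerol genes it was the highest control for 4 and the lowest for 1. These counts were 3 and 0 of 8 other INO1 regulators, and 3 and 1 of 8 inositol supply genes. In each remaining list it was the highest for 0 to 2 genes and the lowest for 0 to 3. Among the 6 other genes of the CDP-choline and CDP-ethanolamine route, control 3 was the lowest control for 0. This list leaves out the member CKI1 of the same route, for which control 3 was the lowest. The 6 genes had a median of −0.02, with 1 of 6 positive and none called, and PCT1 and EKI1 were at −0.11 ± 0.08 and 0.08 ± 0.10.

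Genes that make or use phosphatidic acid, the lipid that holds Opi1 at the ER, had a median of 0.0013, with 6 of 12 positive and none called. The lipid phosphatase gene LPP1 was at 0.37 ± 0.11 (adjusted p = 0.104). PAH1, which turns phosphatidic acid into diacylglycerol, was at 0.31 ± 0.12 (adjusted p = 0.201). Other regulators of INO1 had a median of 0.08, with 5 of 8 positive and none called. The corepressor gene SIN3 was at 0.15 ± 0.09 and the kinase gene SNF1 at 0.22 ± 0.15. Within set 1 SIN3 was at −0.05 ± 0.04 and SNF1 at 0.04 ± 0.06. Within set 2 they were at 0.22 ± 0.06 and −0.04 ± 0.09.

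The phosphoinositide kinase and phosphatase genes had a median of 0.03, with 7 of 10 positive and none called. FAB1 was at 0.45 ± 0.12 (adjusted p = 0.0903) and VPS34 at 0.31 ± 0.09 (adjusted p = 0.108). VPS34 was at 0.42 ± 0.05 in set 1 and −0.09 ± 0.07 in set 2. Cardiolipin genes had a median of −0.01, with 1 of 5 positive and none called, and GEP4 and CLD1 were at −0.34 ± 0.18 and 0.32 ± 0.17. Fatty acid synthesis genes had a median of 0.05, with 6 of 11 positive and none called. FAA1, a fatty acid activation gene, was at 0.45 ± 0.16 (adjusted p = 0.176), and the desaturase gene OLE1 was at −0.27 ± 0.09 (adjusted p = 0.181). Methyl donor genes had a median of 0.04, with 4 of 5 positive and none called. SAM2, which makes the methyl donor, was at 0.16 ± 0.10, and SAH1, which clears the product of its use, was at 0.10 ± 0.08. Within set 1 SAM2 was at −0.004 ± 0.06 and SAH1 at −0.01 ± 0.05. Within set 2 they were at 0.17 ± 0.08 and 0.03 ± 0.08.

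**Figure D4:**
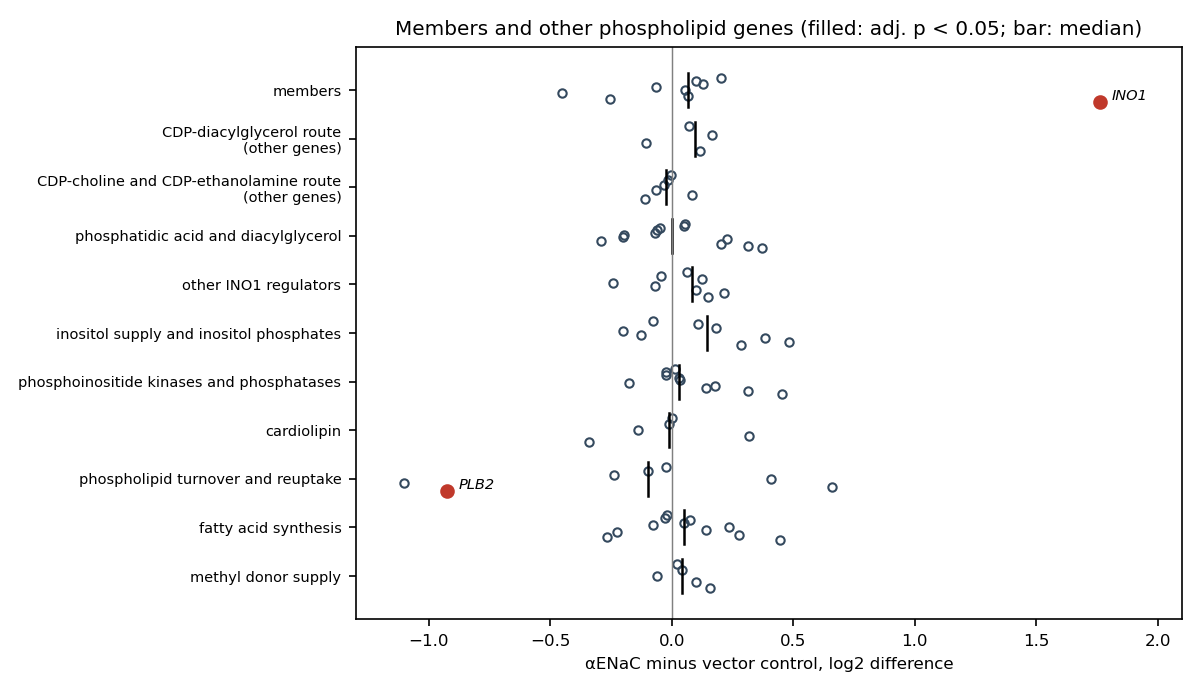
Log2 difference of αENaC from vector control for the 9 members and for 76 further genes in 10 lists. Each point is a gene, filled points passed limma at an adjusted p under 0.05 and bars are medians. INO1 at 1.76 and PLB2 at −0.93 are the filled points, and all list medians lie between −0.10 and 0.15.

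No other member had a profile close to that of INO1 in both size and shape. Likeness was measured as the root mean square (RMS) difference between log2 levels over the 10 arrays, each gene centred on its control mean, so that both the shape and the size of a profile count. Among 4938 other probe sets above background on average, the closest was ADR1, an activator gene of glucose-repressed genes, with an RMS difference of 0.314. It was followed by the serine deaminase gene CHA1 at 0.388, ULI1, known as a gene that unfolded protein stress turns on, at 0.465, YOR338W at 0.498 and PDH1, a gene of propionate breakdown, at 0.544. The median over all compared probe sets was 1.05. The closest other member was CKI1, at an RMS difference of 0.938, which was place 718 among the 4938. Since no other member rose by a similar amount, a large RMS difference from INO1 followed from the group comparison. It says little about whether the shapes of the profiles were alike.

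ADR1, the nearest of these genes, was at 0.07, 0.07 and −0.32 on the αENaC arrays, and from −1.94 in control 3 to −1.24 in control 2. Like INO1, it was highest in αENaC yeast, had its lowest αENaC level on αENaC 3 and its lowest control level on control 3. The rise was 1.37 ± 0.16 for ADR1 and 1.30 ± 0.22 for CHA1, and the difference was 1.25 ± 0.33 for PDH1 (adjusted p = 0.0855), which missed the threshold. PDH1 lay above the background level of −2.00 in only 2 of 7 controls, those of set 1, so its difference and its likeness are taken in part against a signal not above background. CHA1 was above background in 6 controls and ULI1 in 5. A measure of this kind favours genes that rose by a similar amount and moved alike over these same arrays. The pattern that ADR1 shares with INO1 is thus part of how it was chosen.

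**Figure D5:**
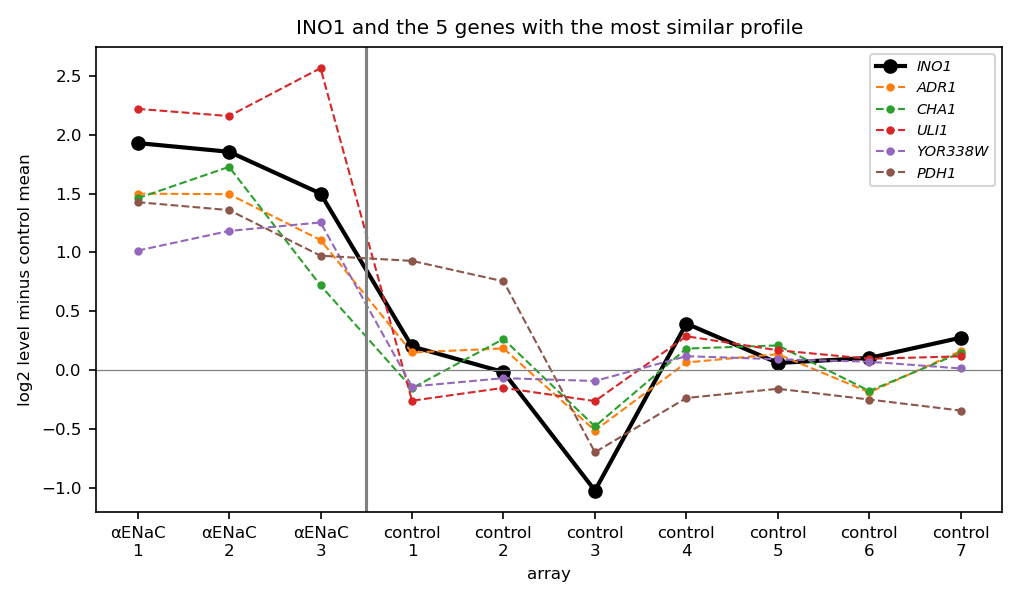
Log2 level minus the control mean on each array for INO1 (black) and the 5 genes with the smallest RMS difference from it. All lie above 0 on the 3 αENaC arrays, and of the 6 genes YOR338W alone does not have its lowest level on control 3.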

How the data were processed

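Single-colour arrays of biotin-labelled cRNA were analysed for 3 αENaC and 7 control samples. The authors deposited 1 score per probe set and array. Judged by its mean and SD, this is a z score taken over the 10715 probe sets of an array. Summarisation and background correction by the authors are not described in the labels.

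Each array's scores were turned into array means by subtracting the lowest score and dividing by its size, which takes the lowest value as 0. Then 0.03 was added, log2 was taken and arrays were quantile normalized. On this log2(value + 0.03) scale, changes of low genes come out too small. Probe sets were named by the platform annotation through gene identifiers in the R64 RefSeq table. Of the probe sets, 5498 name 1 yeast gene and 1746 are named outside the yeast annotation. The 95th percentile of the latter, −2.00, was the background, and 4939 yeast probe sets lay above it on average. Precision is limited by the small number of arrays.

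The group comparison used limma 3.58.1 under R 4.3.3 (2-sided, 8 residual degrees of freedom, Benjamini-Hochberg over 5498 probe sets, threshold 0.05). A second fit used 5 means of group by set (5 residual degrees of freedom). The test was checked on simulated data with independent arrays and no set effect, so that check does not cover the differences between sets. Same-numbered replicates deviated together from their group means (r = 0.41, 0.22 and 0.17, all above 0.1). They also share a set, so these values cannot tell a pairing of single arrays from the set. The replicate number was used as a block in 1 alternative. Members and lists were chosen with earlier results of these data known. The text names the members, list genes that passed or otherwise the pair with the smallest p, the 5 genes most like INO1, and URA3. It also names GIT1 and GDE1, the largest fall and rise of the 76 list genes, added after the values were seen. Alternatives changed scaling, pseudocount, filters, variance model, weights, blocks and arrays used, and were run for PLB2 after its call was seen. One further gene of the regulon is not reported here. GPC1, from the turnover list, was not analysed here.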

Additional observations from a re-analysis of the deposited data

Results flagged for a closer look

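The INO1 level of −1.45 in control 3 lay far below those of the other 6 controls, by a gap test (Dixon) that flags about 1 in 20 groups by chance. Among the members, the effect of the plasmid differed between set 1 and set 2 in the fit by set for INO2 (set 1 minus set 2 at 0.74), ITR1 (−0.74) and CHO1 (−0.39). Among the other named genes it differed for PSD2 (−0.38), CDS1 (−0.75), LPP1 (0.56), SIN3 (−0.27), VPS34 (0.51), GEP4 (−0.48), PLB2 (1.16) and PDH1 (−1.12). Such a difference was called for 17.4% of all yeast probe sets, and set 2 holds 1 array of each group. Their cause was not tested.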

How the results depend on the processing

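The INO1 difference stayed positive under all 25 alternatives, passed the test in 21, and ran from 1.59 to 2.04 on the log2 scale. Of the 9 members, 1 was called, but 8 with array weights (whose estimation stopped before it converged), 2 with the set as a fixed block, 2 with it as a random block, 2 in sets 1 and 2 alone with that block, 5 in set 1 alone, and 0 both with near-identical arrays averaged (219 probe sets at an unadjusted p under 0.05) and with the replicate block (1127). With array weights 2365 of the 5498 yeast probe sets were higher and 1761 lower, and in set 1 alone 1559 and 1750. The set block called 14.2% of them, and averaging or the replicate block called 0. The member counts thus largely moved with the counts over all yeast probe sets. Leaving out 1 array gave 0 to 2 members. INO1 was not called without αENaC 1 or αENaC 2, and OPI1 was called as well without control 3. The replicate block changed no other member's call.

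Over all yeast probe sets, 75 were higher and 20 lower. These counts were 34 and 5 with median centring, 45 and 1 without quantile normalization (median shift of all genes 0.16), 89 and 4 on the deposited z scores, 2365 and 1761 with array weights, 406 and 377 with the set block, 358 and 259 with the random block, 250 and 186 in sets 1 and 2 with the block, 1559 and 1750 in set 1 alone, and 0 and 0 with arrays averaged or with the replicate block. Leaving out 1 array gave 11 to 162 higher and 1 to 86 lower. The fewest came without αENaC 1 or 2 and the most without αENaC 3 or control 3.

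Signs turned for members that were not called in the comparison over all arrays. INO2 was at 0.14 in set 1 alone. INO4 was at −0.071 with the set block, in sets 1 and 2 with that block and with the replicate block, at −0.056 with the random block, at −0.044 in set 1 alone, and at −0.019 to 0.18 when 1 array was left out. ITR1 was at −0.21 after median centring, −0.052 without quantile normalization, −0.086 with the set block, in sets 1 and 2 with that block and with the replicate block, −0.072 with the random block, −0.33 in set 1 alone, and −0.017 to 0.15 when 1 array was left out. ITR1 was called in opposite directions by limma, lower in set 1 alone (adjusted p = 0.0310) and higher with array weights (0.20, adjusted p = 0.00852). CHO1 was at 0.049 on the z scores. CHO2 was at −0.13 after median centring and −0.061 in set 1 alone. OPI3 was at −0.29 after median centring, and at −0.13 without quantile normalization. The cause was not tested. The number of arrays limits what can be called, and 2 of 3 αENaC arrays are near-identical.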
